A study of Mus musculus with 12 samples.

Results

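The liver releases proteins that act on other tissues, called hepatokines, and 9 genes of hepatokines that are often discussed in relation to exercise were examined here in mouse liver: Fgf21, Gdf15, Angptl4, Angptl6, Angptl8, Fst, Ahsg, Fetub and Lect2. They were chosen by name, with no measured value in the rule, and each matched a single entry among the 16821 genes listed. Of the 9 genes, 8 passed the filter on low values (at least 1 FPKM in at least 6 of 12 mice) that left 10241 genes for testing, and Fgf21 did not. FPKM count sequenced fragments, scaled to transcript length and to the mapped fragments of the library.

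Liver RNA was sequenced from 12 adult male C57BL/6J mice, 6 in the sedentary Con group and 6 in the Exe group. In the Exe group, moderate treadmill running was done on 5 days a week for 6 weeks, and the Con group did no treadmill running. Livers of both groups were perfused with saline and collected within a day of the last run, at a single time point. Each mouse gave its own library, and the labels and methods name no engineered allele and no drug in either group.

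Hepatokines reach muscle, adipose tissue and brain through the blood, and several of them rise in plasma after a single bout of exercise. FGF21 acts on cells that carry an FGF receptor together with the co-receptor KLB, and its gene is a target of PPARα in fasting and of ATF4 under cell stress. GDF15 signals through GFRAL in the hindbrain. ANGPTL4 and ANGPTL8 take part in restraining lipoprotein lipase, follistatin (Fst) binds activins and myostatin, the fetuins (Ahsg, Fetub) are abundant plasma glycoproteins, and LECT2 is a secreted protein known in insulin resistance and fatty liver.

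As a check of the tissue, all 10 hepatocyte markers averaged at least 1 FPKM, and their summed level was 62668 to 80907 in Con and 71647 to 88497 in Exe (exact permutation test, p = 0.0303). Alb alone averaged 34839 FPKM in Con and 43908 in Exe, so this gene weighed heavily in the sum. Of the 10 markers, 7 had a higher and 3 a lower mean in Exe, with a median log2 fold change of 0.02. Summed FPKM over all genes was 735200 to 820107 per mouse. Among 22 pancreatic acinar markers listed, 13 were at 0 in at least 10 mice, and the summed level was 10.8 to 17.1 in Con and 14.7 to 39.9 in Exe, highest in Exe 5 (exact permutation test, p = 0.0173). The sum of 7 lymphocyte markers was 3.28 to 6.71 in Con and 5.13 to 9.92 in Exe, also highest in Exe 5 (exact permutation test, p = 0.0455). All 10 Kupffer cell markers had a lower mean in Exe with 0 past an unadjusted p of 0.05, and their sum was 297 to 546 in Con and 217 to 497 in Exe (exact permutation test, p = 0.333). The part of these differences in the values that follow was not tested. In bulk liver, fewer cells of a type and less RNA per cell cannot be told apart.

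Compared with Con group, none of the 8 hepatokine genes tested passed the test for a change in Exe group. With limma and an adjustment over all 10241 genes, 0 of the 8 passed an adjusted p of 0.05, where 0% of all genes did so, and the smallest adjusted p of any gene was 0.519. At an unadjusted p of 0.05, 0 of the 8 passed, beside 6.21% of all genes (636 genes, 4.27% higher and 1.94% lower in Exe). The groups overlapped for all 9 genes, and for 0.254% of all genes (26 genes) they did not. Of the 8, 4 had a higher and 4 a lower mean in Exe, with a median log2 fold change of -0.035 beside 0.016 over all genes tested.

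The 9 genes differed far more from each other than between groups. The mean FPKM of the highest, Ahsg, was 7055 times that of the lowest, Fgf21, and Ahsg alone supplied 90.5% of the FPKM of the 9 genes. FPKM is scaled to transcript length, so levels of different genes could be set side by side. The descending order of mean FPKM was Ahsg, Fetub, Lect2, Angptl8, Angptl4, Angptl6, Gdf15, Fst and Fgf21. Ahsg lay above Fetub, Fetub above Lect2, Angptl4 above Angptl6 and Gdf15 above Fst in 12 of 12 mice. Angptl8 exceeded Angptl4 in 7 of 12 mice and Fst exceeded Fgf21 in 7 of 12, so neither of these neighbours could be ordered beyond the spread. Lect2 exceeded Angptl8 in 10 of 12 mice and Angptl6 exceeded Gdf15 in 11 of 12.

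**Figure D1:**
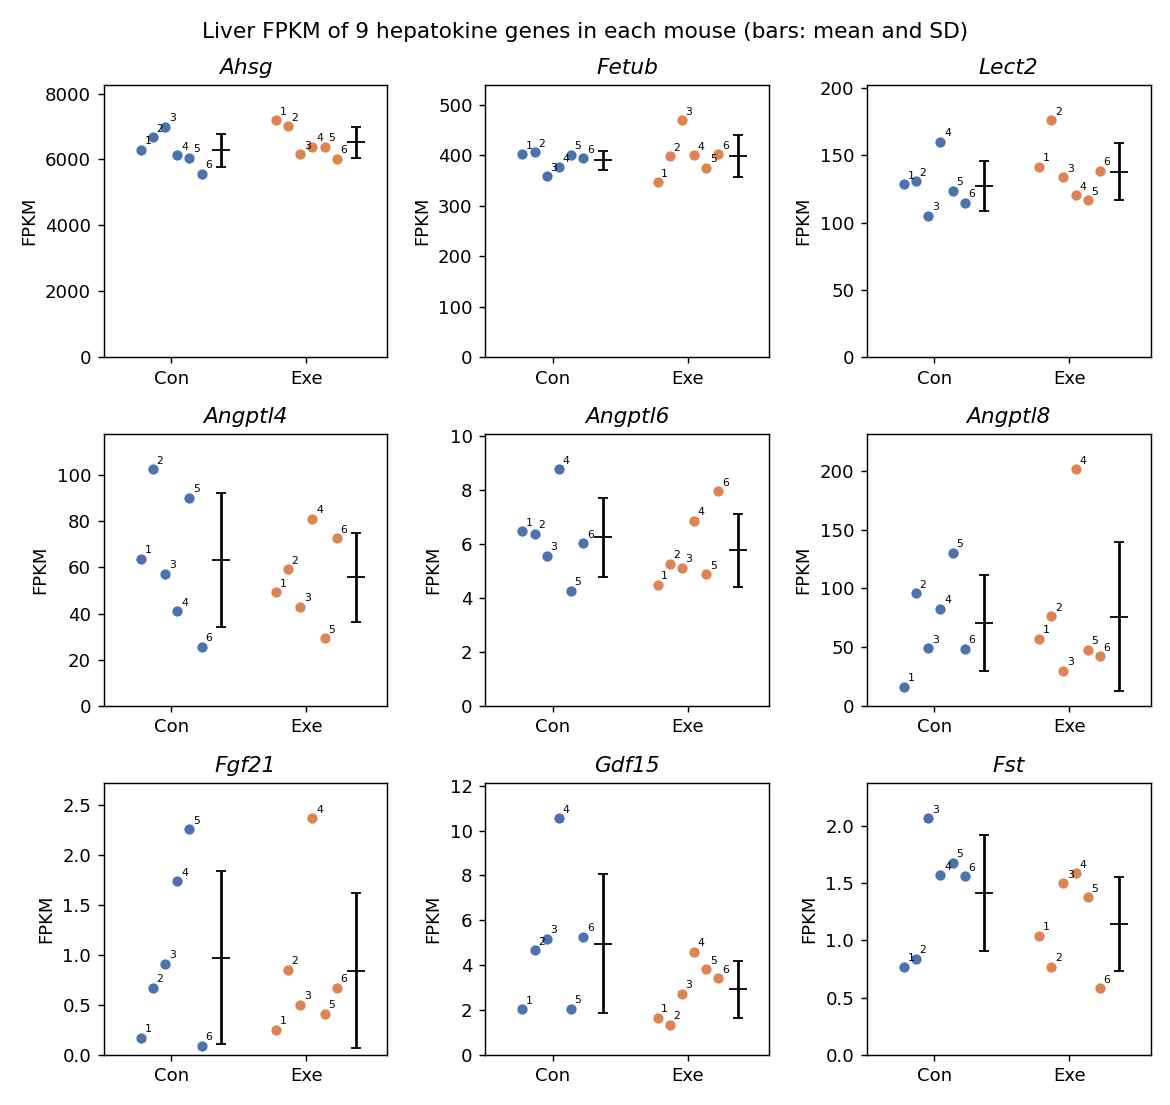
FPKM (vertical axes, linear from 0, a separate scale for each gene) of the 9 hepatokine genes in each Con and Exe mouse, with the mouse number beside each point and bars for the mean and SD of 6 mice. The groups overlap for every gene, and Exe 4 stands at the top for Angptl8 (201 FPKM) and Fgf21 (2.37 FPKM).

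Fgf21, the fasting and stress hormone, was near the floor of detection. Its FPKM in Con mice was 0.09 at the lowest (Con 6), 0.79 at the median and 2.26 at the highest (Con 5). In Exe mice it was 0.25 at the lowest (Exe 1), 0.585 at the median and 2.37 at the highest (Exe 4). The groups covered nearly the same range, and 3 of the 12 mice, Con 4, Con 5 and Exe 4, reached 1 FPKM. Con averaged 0.973 ± 0.868 and Exe 0.842 ± 0.777 FPKM (SD, n = 6 each), with a difference of -0.07 on the log2(FPKM + 1) scale (exact permutation test, p = 0.853). The highest mouse was 26.3 times the lowest.

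The low values of Fgf21 could be placed on steps. All 9 values under 1 FPKM were whole multiples of 0.0837 FPKM within 0.005 FPKM plus 2%, and on that step the mice held from 1 fragment (Con 6) to 28 fragments (Exe 4). The step was inferred from these same values, and the tolerance widens with level, so the larger values could hardly miss it. These fragment numbers are inferred from the steps, on the assumption of the same transcript length and a similar depth in all mice. An exact Poisson interval (95%) from them ran from 0.00212 to 0.466 FPKM for Con 6 and from 1.56 to 3.39 FPKM for Exe 4. These intervals did not overlap, while those of mice with neighbouring values did, so the order of such neighbours was not detectable at this depth. Such intervals cover counting error only and depend on the inferred step.

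Genes of FGF receptors and of the co-receptor KLB were expressed in liver. Mean FPKM over 12 mice was 14.0 for Fgfr4, 10.01 for Fgfr3, 8.26 for Fgfr2, 3.27 for Fgfr1 and 7.85 for Klb. Which of these receptors FGF21 signals through in liver was not examined. Kl, the co-receptor of a related hormone, averaged 0.0058 FPKM. Of the 5 tested genes of this receptor list, 0 passed an unadjusted p of 0.05, with 1 higher and 4 lower in Exe. Fgfr1 was 3.58 ± 0.66 in Con and 2.96 ± 0.35 in Exe (SD, n = 6 each; limma adjusted p = 0.799). Ret, which pairs with GFRAL in the receptor of GDF15, averaged 0.0125 FPKM, and Gfral was not analysed here.

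Gdf15, a stress-responsive cytokine of the TGF-β family, had the largest difference of the 8 genes tested, and it did not pass the test. Con mice had FPKM of 2.03 at the lowest, 4.92 at the median and 10.6 at the highest (Con 4). In Exe mice it was 1.33 at the lowest (Exe 2), 3.07 at the median and 4.6 at the highest (Exe 4). None of the 6 Exe mice exceeded the Con median, and Exe 1 and Exe 2 fell below every Con mouse, but the ranges overlapped in between. Con averaged 4.96 ± 3.12 and Exe 2.92 ± 1.27 FPKM (SD, n = 6 each). The log2 fold change was -0.52 with a standard error of 0.31 and a 95% interval of -1.19 to 0.16 (limma adjusted p = 0.873). The exact permutation test gave p = 0.18. Without Con 4 the log2 fold change was -0.29, and without Con 1 or Con 5 it was -0.68, with unadjusted limma p of 0.0439 and 0.0447.

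The stress-response genes of ATF4 and CHOP, the pathway that drives Gdf15 and Fgf21 under cell stress, were read from a list of 19 genes. Of 13 tested, 4 were higher and 9 lower in Exe, at a median of -0.11 on the log2 scale. Of the 13, 1 passed an unadjusted p of 0.05. That gene was Sesn2, a sestrin that restrains mTORC1, at 2.49 ± 0.43 FPKM in Con and 1.89 ± 0.41 FPKM in Exe (log2 fold change -0.28, limma adjusted p = 0.793). Trib3, a pseudokinase induced by ATF4 and CHOP, was 6.90 ± 1.91 in Con and 4.76 ± 2.27 in Exe (SD, n = 6 each; log2 fold change -0.52, limma adjusted p = 0.799).

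**Figure D2:**
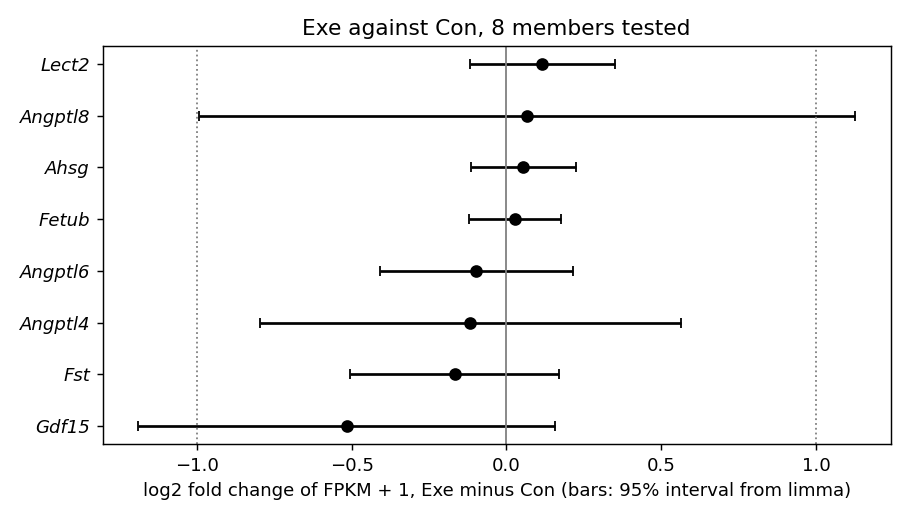
Log2 fold change of FPKM + 1, Exe minus Con, for the 8 hepatokine genes tested (points) with 95% intervals from limma (bars); dotted lines mark log2 fold changes of -1 and 1. All 8 intervals include 0, with Gdf15 lowest at -0.52 and the widest interval for Angptl8, from -0.99 to 1.13.

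Angptl8, which takes part in the inhibition of lipoprotein lipase after feeding, varied most between mice of the 8 genes tested. Con mice held FPKM of 16.1 at the lowest (Con 1), 65.7 at the median and 130 at the highest (Con 5). In Exe mice it was 29.9 at the lowest (Exe 3), 52.6 at the median and 201 at the highest (Exe 4). The groups overlapped almost wholly, with a lower median and a higher maximum in Exe. Con averaged 70.4 ± 40.6 and Exe 75.8 ± 63.5 FPKM (SD, n = 6 each), a log2 fold change of 0.07 with a standard error of 0.49 (95% interval -0.99 to 1.13, limma adjusted p = 0.993). Without Exe 4 the log2 fold change was -0.27, and without Con 1 it was -0.29, so its sign rested on single mice.

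Angptl4, the fasting-induced inhibitor of lipoprotein lipase, was similar in level, with a smaller range. Among Con mice FPKM was 25.6 at the lowest (Con 6), 60.5 at the median and 102.5 at the highest (Con 2). In Exe mice it was 29.3 at the lowest (Exe 5), 54.2 at the median and 81.1 at the highest (Exe 4). The Exe range lay wholly inside the Con range. Con averaged 63.3 ± 29.0 and Exe 55.7 ± 19.2 FPKM (SD, n = 6 each), a log2 fold change of -0.12 with a standard error of 0.32 (95% interval -0.80 to 0.56, limma adjusted p = 0.974). Its sign turned without Con 2, Con 5 or Exe 5.

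Angptl6, a growth factor that counters weight gain in mice, was lower and steadier. Con values were 4.26 FPKM at the lowest, 6.20 at the median and 8.76 at the highest (Con 4), and in Exe mice 4.49, 5.19 and 7.95 (Exe 6). The Exe range again lay inside the Con range. Con averaged 6.24 ± 1.47 and Exe 5.76 ± 1.34 FPKM (SD, n = 6 each), a log2 fold change of -0.10 with a standard error of 0.15 (limma adjusted p = 0.957). It was -0.01 without Con 4 and -0.18 without Con 5.

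Other genes of lipoprotein lipolysis gave 6 higher and 7 lower in Exe of 13 tested from 15 listed, and 2 passed an unadjusted p of 0.05. Lipg, endothelial lipase, was 4.21 ± 2.22 FPKM in Con and 2.02 ± 0.89 in Exe (log2 fold change -0.74, limma adjusted p = 0.793). Apoc3, an apolipoprotein that slows the clearance of triglyceride-rich particles, was 3857 ± 444 FPKM in Con and 4508 ± 533 in Exe (log2 fold change 0.22, limma adjusted p = 0.799). Lipoprotein lipase itself (Lpl) averaged 9.52 FPKM over 12 mice.

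Lipogenic genes that respond to feeding and insulin, as Angptl8 does, were read from a list of 18. Of 17 tested, 12 had a higher and 5 a lower mean in Exe (median 0.20 on the log2 scale), and 5 passed an unadjusted p of 0.05 with 0 past the adjusted p. Acly, which makes cytosolic acetyl-CoA, was 55.1 ± 4.70 FPKM in Con and 77.0 ± 21.4 in Exe (log2 fold change 0.44, limma adjusted p = 0.789), and Acacb, an acetyl-CoA carboxylase, was 7.67 ± 1.07 in Con and 12.2 ± 3.77 in Exe (log2 fold change 0.57, limma adjusted p = 0.761). Acaca and Elovl6 had log2 fold changes of 0.32 and 0.46. Targets of PPARα, which drives Fgf21 and Angptl4 in fasting, had 9 higher and 11 lower of 20 tested (median -0.03 on the log2 scale), and 3 passed an unadjusted p of 0.05 with 0 past the adjusted p. The fatty acid ω-hydroxylase genes Cyp4a14 and Cyp4a10 were higher in Exe, with log2 fold changes of 2.13 (limma adjusted p = 0.657) and 1.17 (limma adjusted p = 0.580), and the pantetheinase gene Vnn1 was lower, at -0.44 (limma adjusted p = 0.761).

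Fst, the activin and myostatin antagonist, was expressed at about 1 FPKM. Con mice had FPKM of 0.77 at the lowest (Con 1), 1.565 at the median and 2.07 at the highest (Con 3), and in Exe mice 0.58 at the lowest (Exe 6), 1.21 at the median and 1.59 at the highest (Exe 4). Exe 6 was the single Exe mouse below every Con mouse, and the ranges otherwise overlapped. Con averaged 1.415 ± 0.508 and Exe 1.14 ± 0.412 FPKM (SD, n = 6 each), a log2 fold change of -0.17 with a standard error of 0.16 (95% interval -0.51 to 0.17, limma adjusted p = 0.931). It was -0.08 without Exe 6.

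Among activin subunit genes, mean FPKM was 36.6 for Inhbc, 23.6 for Inhbe, 1.79 for Inhba and 0.27 for Inhbb. Which of their products follistatin binds in liver was not examined. Myostatin (Mstn) averaged 0.0017 FPKM. Of 12 activin and follistatin genes tested from 20 listed, 6 were higher and 6 lower in Exe, and 1 passed an unadjusted p of 0.05. It was Acvr1b, an activin receptor, at 4.87 ± 0.59 FPKM in Con and 4.17 ± 0.24 in Exe (log2 fold change -0.18, limma adjusted p = 0.793).

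Ahsg, or fetuin-A, which binds calcium phosphate in plasma and inhibits the insulin receptor, was among the most abundant transcripts of the liver, in place 21 of 16821 genes with 0.822% of all FPKM. Its FPKM in Con mice was 5563 at the lowest (Con 6), 6211 at the median and 6989 at the highest (Con 3). In Exe mice it was 6019 at the lowest (Exe 6), 6387 at the median and 7185 at the highest (Exe 1). The Exe group lay slightly higher in all 3 of these values, within the spread. Con averaged 6283 ± 501 and Exe 6522 ± 467 FPKM (SD, n = 6 each), a log2 fold change of 0.05 with a standard error of 0.08 (95% interval -0.11 to 0.22, limma adjusted p = 0.954).

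Fetub, or fetuin-B, an inhibitor of the egg protease ovastacin, is the neighbouring gene, with 0 protein-coding genes between them in RefSeq. Con mice had 358 FPKM at the lowest (Con 3), 397 at the median and 406 at the highest (Con 2), and in Exe mice 346 at the lowest (Exe 1), 399 at the median and 469 at the highest (Exe 3). Con averaged 389 ± 18.7 and Exe 398 ± 40.7 FPKM (SD, n = 6 each), a log2 fold change of 0.03 with a standard error of 0.07 (95% interval -0.12 to 0.18, limma adjusted p = 0.969). The intervals of both fetuin genes were narrow beside those of the angiopoietin-like genes, and the groups overlapped. Of the 6 tested genes among their relatives and targets, all 6 were higher in Exe and 0 passed an unadjusted p of 0.05.

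Lect2 was intermediate in level and in spread. In Con mice FPKM was 105 at the lowest (Con 3), 126 at the median and 160 at the highest (Con 4), and in Exe mice 117 at the lowest (Exe 5), 136 at the median and 176 at the highest (Exe 2). Con averaged 127 ± 18.7 and Exe 138 ± 21.1 FPKM (SD, n = 6 each), a log2 fold change of 0.12 with a standard error of 0.11 (95% interval -0.12 to 0.35, limma adjusted p = 0.931). It was 0.04 without Exe 2 and 0.18 without Con 4. Among 3 tested genes of its receptors, 3 were higher in Exe and 1 passed an unadjusted p of 0.05, the angiopoietin receptor Tek, at 1.66 ± 0.37 FPKM in Con and 2.18 ± 0.49 in Exe (log2 fold change 0.26, limma adjusted p = 0.799).

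The hepatokine genes differed widely in how much mice of the same group varied. The within-group SD of log2(FPKM + 1) was 0.99 for Angptl8, 0.63 for Angptl4 and 0.63 for Gdf15, against a median of 0.14 over the 10241 genes tested. These SDs exceeded those of 99.7%, 98.9% and 98.8% of genes, and among the 200 genes nearest in mean level they exceeded 99.5%, 97.5% and 99.5%. Fst at 0.30 and Angptl6 at 0.28 exceeded 91.7% and 89.9% of genes. Lect2 at 0.21 exceeded 78.5%. Ahsg at 0.11 and Fetub at 0.11 exceeded 26.4% and 30.1% of genes, but under quantile normalization Ahsg exceeded 84.6%, and without Exe 3 Fetub exceeded 8.54%. The intervals for Angptl8 (up to 1.13) and Gdf15 (down to -1.19) still contained a log2 fold change of 1 in size. The 3 genes above 95% were the same whichever mouse was left out.

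**Figure D3:**
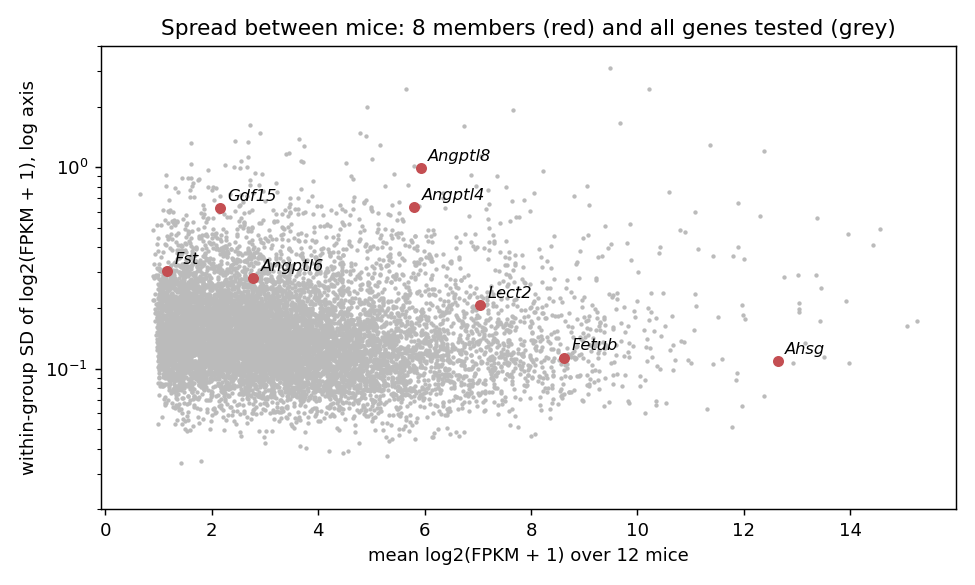
Within-group SD of log2(FPKM + 1) (vertical, log axis) against mean log2(FPKM + 1) over 12 mice (horizontal) for the 10241 genes tested (grey) and the 8 hepatokine genes tested (red). Angptl8, Angptl4 and Gdf15 lie near the upper edge of the cloud, and Ahsg and Fetub, above 26.4% and 30.1% of genes on this scale, lie lower.

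Whether the hepatokine genes varied together was examined over 12 mice. Among the 28 pairs of the 8 tested genes, 0 reached a permutation p of 0.05 by Spearman's rho, and the smallest adjusted p was 0.618. The pair with the highest Pearson's r was Gdf15 and Angptl6 (r 0.67, permutation p = 0.0181, adjusted p = 0.507, rho 0.51, permutation p = 0.0944). Within Con its r was 0.74 and within Exe 0.55, and without Con 4 and Exe 2 it was 0.46 (permutation p = 0.174). The neighbouring genes Ahsg and Fetub had r -0.46 (permutation p = 0.13) and rho -0.35 (permutation p = 0.266), but with equal sums per mouse rho was 0.08 and r -0.07. With Fgf21 kept, a choice made after seeing the data, 1 of 36 pairs reached a permutation p of 0.05.

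That pair was Fgf21 and Angptl8. Both were highest in Exe 4 and second highest in Con 5, and rho was 0.73 (permutation p = 0.00868, adjusted p = 0.312) with r 0.79 (permutation p = 0.00198, adjusted p = 0.0713). Within Con r was 0.75 (exact permutation test, p = 0.0806) and within Exe 0.86 (exact permutation test, p = 0.0625). Without Con 5 and Exe 4, the mice farthest from the median of Fgf21, r kept its sign at 0.56 but did not reach 0.05 (permutation p = 0.0958, 10 mice).

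The promoters of Fgf21 and Angptl8 are shown because their rho was the highest of the 36 pairs. They are the 250 bases before the start of each gene from RefSeq (GRCm38.p6, a different build from the GRCm39 used for alignment), read 5′ to 3′ on the strand of the gene. The Fgf21 promoter is chr7:45615491-45615740 on the minus strand and the Angptl8 promoter is chr9:21835260-21835509 on the plus strand. Capitals mark TGATGCAAT, a C/EBP-ATF response element, on either strand (ATTGCATCA is its reverse complement), and in Fgf21 also the E-box CACGTG.
Fgf21: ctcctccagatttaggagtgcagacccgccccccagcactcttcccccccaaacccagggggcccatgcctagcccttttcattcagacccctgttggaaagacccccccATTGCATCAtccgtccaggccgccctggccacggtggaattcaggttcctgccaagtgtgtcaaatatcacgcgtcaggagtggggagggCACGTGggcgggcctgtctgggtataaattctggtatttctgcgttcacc
Angptl8: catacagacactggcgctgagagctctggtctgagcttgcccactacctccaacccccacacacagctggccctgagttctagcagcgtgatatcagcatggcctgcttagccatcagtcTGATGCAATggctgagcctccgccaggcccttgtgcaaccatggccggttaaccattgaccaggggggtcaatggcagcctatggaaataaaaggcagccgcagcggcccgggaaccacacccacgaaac

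The element lay at -140 to -132 from the start of Fgf21 in reverse orientation and at -130 to -122 from that of Angptl8 in forward orientation. Of 7 hepatokine genes with an entry (all but Angptl4 and Fst), these 2 held it, and 55 of 32851 promoters in the table (0.167%) did. The looser TGATGNAAN, which overlaps it, was found in both of these genes and in 3.44% of promoters. Of the other motifs searched on both strands, CACGTG was found in Fgf21 and Gdf15 (6.02% of promoters), TATAAA in Fgf21 and Fetub (12.4%), and the PPAR response element in 0 of the 7 (0.0335%). These motifs were chosen after the sequences were seen, and a match is a description of letters in the window and not of a bound factor.

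The mice also differed widely in acute-phase gene expression, the response of hepatocytes to inflammatory cytokines, and hepatokine levels were set against it. The mean log2(FPKM + 1) of 19 acute-phase genes ran from 7.04 (Con 4) to 9.78 (Con 1) in Con and from 7.35 (Exe 4) to 9.71 (Exe 5) in Exe, a group difference of -0.32 (exact permutation test, p = 0.563). Over 12 mice Angptl8 was lower where this level was higher, with rho -0.64 (permutation p = 0.0277, adjusted p over 32 relations = 0.522) and r -0.68 (permutation p = 0.0143, adjusted p = 0.229). Within Con r was -0.73 (exact permutation test, p = 0.1) and within Exe -0.61 (exact permutation test, p = 0.206). Without Con 1 and Exe 4, the mice farthest from the median of Angptl8, r kept its sign at -0.46 but did not reach 0.05 (permutation p = 0.175).

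Fgf21, kept after seeing the data, gave rho -0.68 (permutation p = 0.0176, adjusted p = 0.294) with the acute-phase level and r -0.74 (permutation p = 0.00638, adjusted p = 0.165). Within Con r was -0.87 (exact permutation test, p = 0.0528), within Exe -0.61 (exact permutation test, p = 0.215) and without Con 5 and Exe 4 -0.65 (permutation p = 0.0404, 10 mice). Gene by gene, 18 of 19 acute-phase genes had a negative rho with Fgf21, 18 of 19 with Angptl8 and 19 of 19 with Lect2. The count was 18 of 19 for Angptl4, 14 for Fst, 13 for Angptl6, 8 for Gdf15, 8 for Ahsg and 5 for Fetub. Angptl4, with as high a count of 18 of 19, had a median rho of -0.14 over these genes. The median rho was -0.59 for Fgf21, -0.56 for Angptl8 and -0.49 for Lect2. With the mean acute-phase level Angptl4 had rho -0.11 over 12 mice (permutation p = 0.732). Within Exe its r was -0.89 (exact permutation test, p = 0.0181) and within Con 0.06 (exact permutation test, p = 0.911). Without Con 6 and Exe 5, r was 0.14 (permutation p = 0.697). A difference in r between the groups was not tested. Ahsg, itself classed as a negative acute-phase gene, had rho 0.07 (permutation p = 0.833) with this level, but under quantile normalization it had rho -0.67 (permutation p = 0.0192, adjusted p = 0.516), so its direction depended on the scaling between mice. Acute-phase genes move together, so these counts are not independent, and 0 of 32 relations passed the adjustment.

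**Figure D4:**
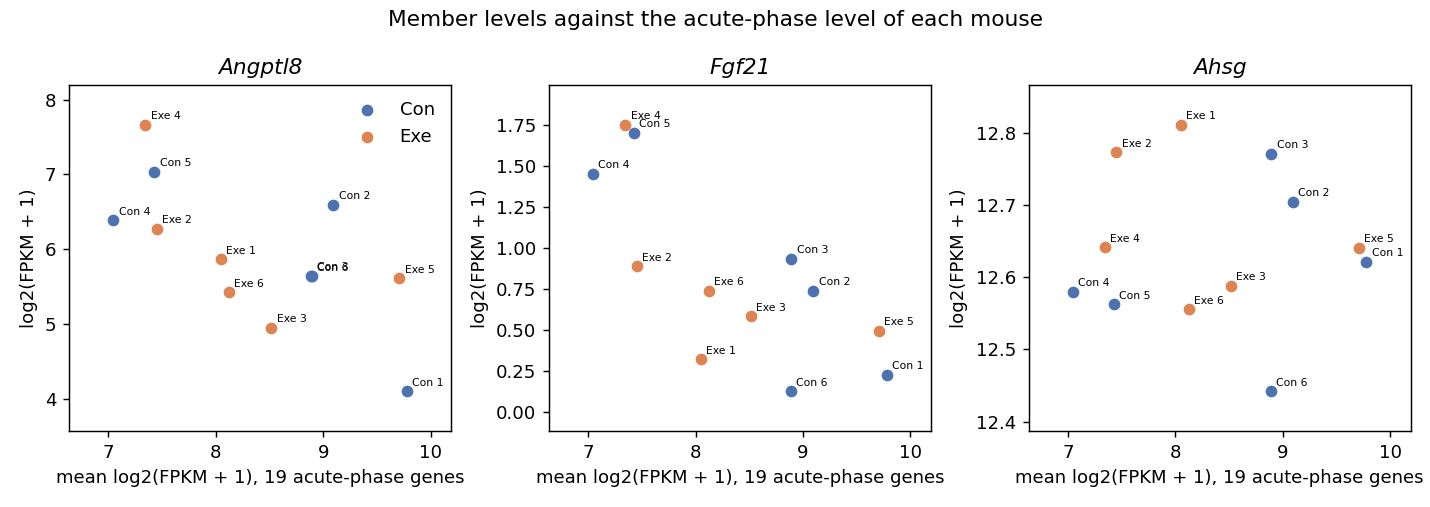
Log2(FPKM + 1) of Angptl8, Fgf21 and Ahsg (vertical axes, each with its own scale) against the mean log2(FPKM + 1) of 19 acute-phase genes (horizontal) in 6 Con and 6 Exe mice. Angptl8 (rho -0.64) and Fgf21 (rho -0.68) are lower toward the right, with Exe 4 at the upper left, and Ahsg (rho 0.07 as plotted, -0.67 under quantile normalization) is spread over the range.

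Other relations with gene-list levels were fewer. Lect2 was lower where the stress-response level was higher (rho -0.63, permutation p = 0.0326, adjusted p = 0.522, and r -0.72, permutation p = 0.00916), with r -0.97 within Exe (exact permutation test, p = 0.00139) and -0.19 within Con (exact permutation test, p = 0.729). Without Con 4 and Exe 2, r was -0.74 (permutation p = 0.0157). Gdf15 went the other way with that list (rho 0.50, permutation p = 0.0994, adjusted p = 0.647). Its r was 0.86 within Exe (exact permutation test, p = 0.0264) and 0.15 within Con (exact permutation test, p = 0.778). Without Con 4 and Exe 2 it was 0.465 (permutation p = 0.176). Whether r differed between the groups was not tested for either gene. With the same list, Fgf21 had rho 0.04 (permutation p = 0.899, adjusted p = 0.981). Angptl8 had rho -0.15 with it (permutation p = 0.649, adjusted p = 0.929). With the PPARα target level, Fgf21 had rho 0.67 (permutation p = 0.0215, adjusted p = 0.294) with r 0.55 (permutation p = 0.0642), which was 0.87 within Con (exact permutation test, p = 0.0208), 0.30 within Exe (exact permutation test, p = 0.637) and 0.56 without Con 5 and Exe 4 (permutation p = 0.0883). Angptl8 had rho 0.53 (permutation p = 0.0792, adjusted p = 0.647). All 20 target genes had a positive rho with both of these, and 19 of 20 with Angptl4. Angptl4 had rho 0.455 with their mean level (permutation p = 0.141, adjusted p = 0.647). The target genes share PPARα as a regulator and were read in the same mice, so these counts are not independent.

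For each tested hepatokine gene, the genes most alike in deviations from the group means over 12 mice were also read. The highest was Fbxo33, an F-box gene, with Angptl4 at rho 0.99, above the best match of 99.6% of genes. Next to Angptl8 stood B4galt3 (0.94), Socs7 (0.93) and Msl2 (0.93), and next to Gdf15 Pnrc2 (0.92), Zfp217 (0.90) and Map3k21 (0.88). Best matches this high were usual, since the median best rho over all genes tested was 0.93 and the range 0.78 to 0.998. The best match was Cuedc2 (0.91) for Angptl6, Abca8b (0.95) for Fst, Sin3a (0.90) for Ahsg, Rab24 (0.87) for Fetub and Gnptg (0.94) for Lect2.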

How the data were processed

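A liver library from each of 6 Con and 6 Exe mice was sequenced on the DNBseq platform. After quality filtering, the authors aligned clean reads with HISAT to GRCm39, and they deposited FPKM per gene, rounded to 2 decimals. The submitters' processing notes also name Bowtie2 and mm10, with no role given, and neither the tool that made the FPKM nor a scaling step is given in the sources used here. FPKM are not counts, so depth in reads is unknown and count models, which the authors used for their own differential expression analysis, were not applied.

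Genes with at least 1 FPKM in at least 6 of 12 mice (10241) were compared on log2(FPKM + 1), a scale that understates changes of low genes, with limma 3.58.1 in R 4.3.3 (lmFit, eBayes with trend, group as the only term) and Benjamini-Hochberg adjustment, at an adjusted p of 0.05, alone and with the study's added limit of an absolute log2 fold change over 1, and at an unadjusted 0.05. The fit was tested on simulated data. For single genes, exact two-sided permutation tests over all 924 divisions of the mice were run, with a smallest possible p of 0.00216. Relations used Spearman's rho and Pearson's r with 100000 two-sided permutations, exact within groups of 6, and were adjusted over 28 pairs or 32 gene-list relations (36 each with Fgf21). Values quoted without 2 mice leave out those farthest from the median of the first gene. Other steps used Python 3.11.15 with scipy 1.17.1, pandas 2.3.3 and numpy 2.4.6, and plots were drawn in matplotlib 3.10.9. P-values measure the spread between mice, 1 library each.

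All 9 members were named, with the genes of related lists past an unadjusted p of 0.05 or with the 2 largest changes of their list, and the 3 genes most like each member. Of these, the ones that bear on a member are printed. Some genes of the lists are not reported here. The members and lists were chosen with earlier results of these data known. Promoters came from RefSeq (GRCm38.p6), matched by symbol for 7 of 9 members, and 16710 of 16821 gene IDs matched RefSeq.

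Alternatives were quantile normalization, equal sums per mouse, a pseudocount of 0.1, no filter, a mean of at least 5 FPKM, robust eBayes, a replicate block and each mouse left out. Same-numbered mice did not deviate together, and the labels give no pairing.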

Additional observations from a re-analysis of the deposited data

Results flagged for a closer look

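In 18 sets of 6 mice (9 genes in 2 groups), the gap between the highest or lowest mouse and its neighbour, as a share of the range, was compared with Dixon's 95% critical value for 6 values. It was passed in 2 sets, both by Exe 4. For Fgf21 in Exe 4 (2.37 FPKM, next highest Exe mouse 0.85) the ratio was 0.717, and for Angptl8 in Exe 4 (201 FPKM, next highest 76.4) it was 0.729. The ratios were taken on FPKM, not on the log2 scale of the gene tests, and the critical value assumes normally distributed values. A log2 scale draws in high values, so these 2 sets need not pass on it. Chance alone passes about 1 in 20 such sets only where that assumption holds. Gdf15 in Con 4 was just under the critical value, at 0.62. In Exe 4 the acinar marker sum was 17.9 FPKM and the hepatocyte marker sum 84569 FPKM, both the second highest of 12 mice. The adipocyte sum (1852 FPKM) and the endothelial sum (103 FPKM) of Exe 4 were also the second highest. Of the 7 adipocyte markers, 2 averaged at least 1 FPKM. Its neutrophil sum, 9.28 FPKM, was the lowest of 12 mice, and its remaining marker sums ranked from 4 to 9. The acute-phase level of Exe 4 was the lowest of the Exe mice. Their part in the result was not tested.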

How the results depend on the processing

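Of 318 alternative values, 301 were classed as unchanged, a class in which counts of genes could still move. Some were fixed in advance, since robust eBayes, no filter and the replicate block leave the fold change of a gene as it was. No hepatokine gene passed an adjusted p of 0.05 under any alternative. Over all genes, 1 gene passed with no filter on low values, against 0. Leaving out each mouse moved the number of genes at an unadjusted p of 0.05 from 636 to between 418 (without Exe 2) and 905 (without Exe 5), and the number of hepatokine genes from 0 to between 0 and 1 (Gdf15, 1 without Con 1 or Con 5). Signs turned for 4 genes. Leave-one-out log2 fold changes ran from -0.34 to 0.0493 for Angptl4, -0.29 to 0.29 for Angptl8, -0.0206 to 0.067 for Fetub and -0.26 to 0.10 for Fgf21. Fetub was -0.0187 under quantile normalization and Fgf21 0.0266 with a pseudocount of 0.1. The cause was not tested.

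Of genes at an unadjusted p of 0.05, 68.7% were higher in Exe, 56.4% under quantile normalization and 88.1% with equal sums per mouse. The spread percentile of Ahsg, 26.4%, was 84.6% under quantile normalization, and that of Fst reached 96.7% with a pseudocount of 0.1. Equal replicate numbers did not pair the mice (r of deviations -0.48 to 0.17, over 0.1 in 1 of 6 pairs, with 1 of 6 mice best matched to its own number). With the replicate block, 0 genes were called and 567 passed an unadjusted p of 0.05. Alternatives that need counts were not run. Depth in reads is unknown.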

Other observations

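Other liver-secreted proteins were read from a list of 33. Of 31 tested, 15 had a higher and 16 a lower mean in Exe (median -0.06 on the log2 scale), and 1 passed an unadjusted p of 0.05. That gene was Clu, or clusterin, a secreted chaperone, at 1372 ± 158 FPKM in Con and 1197 ± 111 in Exe (SD, n = 6 each; log2 fold change -0.19, limma adjusted p = 0.799). Orm2, an acute-phase glycoprotein, was 612 ± 532 FPKM in Con and 206 ± 217 in Exe, with a log2 fold change of -1.29 that did not pass the test (limma adjusted p = 0.914).

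In the acute-phase list 3 genes had a higher and 16 a lower mean in Exe, and 1 passed an unadjusted p of 0.05, the cytokine signalling inhibitor Socs3, at 6.30 ± 3.59 FPKM in Con and 3.65 ± 0.82 in Exe (log2 fold change -0.55, limma adjusted p = 0.793). Of 9 negative acute-phase genes, 8 were higher and 1 passed, Alb, the gene of albumin, with a log2 fold change of 0.34 (limma adjusted p = 0.793). Counted once, 16 of 142 genes of the related lists (11.3%) passed an unadjusted p of 0.05, 9 higher and 7 lower, beside 6.21% of all genes, and 0 passed the adjusted p. These lists were chosen with earlier results of these data known.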
